A study of Mus musculus with 27 samples.

Results

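The cytosolic ribosomal protein genes are described here as the protein-coding entries whose mouse symbol is Rpl or Rps followed by a number and, in some, the letter a, x or l. The rule finds 76 of the 55401 gene entries in the table, 30 for proteins of the small ribosomal subunit (Rps) and 46 for proteins of the large subunit (Rpl). The type field of an entry lists the types of all its transcripts, so an entry counts as protein-coding when protein_coding is in that list. It is the only type listed for 9 of the 76, and Rpl6l, Rpl32l and Rps4l, which match by name, are left out because their lists do not hold it. Of the 76 genes, 73 reached an FPKM (fragments per kilobase of gene model per M mapped fragments) of 1 in at least 3 libraries and were tested, among 11118 tested genes. Rpl3l, Rpl10l and Rpl39l did not reach it.

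The study irradiated mice with gamma rays from a 60Co source and measured RNA of the intestine by sequencing. All 27 libraries came from wildtype male C57BL/6 mice, 6 to 8 weeks old, in 9 groups of 3. The control group is labelled as having had no treatment. The other groups are 6 Gy after 6 h, 15 Gy after 6 h, 6 Gy after 24 h, 15 Gy after 24 h, 15 Gy after 3 days, CBLB502 alone after 24 h, and either dose with CBLB502 after 24 h. CBLB502 is a shortened flagellin that activates Toll-like receptor 5, and was injected into the peritoneum at 0.2 mg/kg, in the combined groups 0.5 h before irradiation. No group joins 6 Gy with 3 days, and the labels do not say whether each library came from its own mouse, so each p-value here sets a difference against the scatter of the libraries, which may be technical. RNA of whole intestine mixes many cell types, so fewer cells of a type and less RNA per cell cannot be told apart.

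Ribosomal proteins are made in near-equal numbers, since each ribosome holds 1 copy of nearly all of them, and in the nucleolus they join ribosomal RNA as it is transcribed. Their mRNAs start with a run of pyrimidines, the TOP (terminal oligopyrimidine) motif, through which mTOR and LARP1 control their translation. In the intestine the dividing cells of the crypt are active in making ribosomes. Free Rpl5 and Rpl11 can bind Mdm2 and so stabilise p53. Rps27l, the paralog of Rps27, is itself a transcription target of p53.

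Start-site sequences are shown for 8 genes, to set 2 pyrimidine words beside the changes described below, where Rps27 and Rps27l have unlike values. Each runs from 30 bases before to 20 bases from the RefSeq transcription start in GRCm38.p6 on the gene's strand, 5′ to 3′, and capitals mark the words CTTTCC and CTCTTT, which overlap where they read CTCTTTCC. In Rpl4, Rpl5 and Rps15a the marked word lies before the RefSeq start, so it is not in the mRNA as RefSeq places it. The windows lie at chr3:90213629-90213678 (Rps27, minus strand), chr9:66946056-66946105 (Rps27l, plus), chr4:86857348-86857397 (Rps6, minus), chr7:4792935-4792984 (Rpl28, plus), chr9:64173357-64173406 (Rpl4, plus), chr5:107900498-107900547 (Rpl5, plus), chrX:74270786-74270835 (Rpl10, plus) and chr7:118116128-118116177 (Rps15a, minus).
Rps27: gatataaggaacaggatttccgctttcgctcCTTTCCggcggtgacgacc
Rps27l: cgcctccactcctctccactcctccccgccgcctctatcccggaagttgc
Rps6: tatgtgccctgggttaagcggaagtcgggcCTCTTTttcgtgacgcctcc
Rpl28: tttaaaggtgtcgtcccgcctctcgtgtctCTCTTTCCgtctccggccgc
Rpl4: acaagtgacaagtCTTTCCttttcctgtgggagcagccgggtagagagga
Rpl5: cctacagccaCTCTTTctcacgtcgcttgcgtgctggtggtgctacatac
Rpl10: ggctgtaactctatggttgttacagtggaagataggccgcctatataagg
Rps15a: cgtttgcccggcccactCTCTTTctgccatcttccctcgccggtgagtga

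In these windows Rps27 carries CTTTCC just after its start and the window of its paralog Rps27l holds neither word. Rpl10 also holds neither, though CTCTTT stands further downstream in its 300-base RefSeq window. RefSeq windows matched 57 of the 76 genes, and the 54 of them that were tested gave 65 windows. On the given strand and from 30 bases before to 20 after the start, CTTTCC stood in 16.9% of those 65 windows, against 2.5% of 9766 windows of all tested genes, and CTCTTT in 15.4% against 1.8%. Over the whole 300 bases these shares were 38.5% against 14.9% and 40.0% against 10.8%. A match describes these letters only.

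Gene by gene, the levels were moderate to high. The median over the tested ribosomal protein genes of the mean FPKM was 22.7, against 3.49 over all tested genes, and 86.1% of tested genes lay below that median gene. Mean FPKM ran from 4.46 for Rpl21 to 105 for Rpl41, which encodes the smallest ribosomal protein. FPKM divides by the length of the gene model, 413 to 6765 bases here, so the order between genes depends on those lengths. Rps15a had 2429 mean counts but an FPKM of 4.93 over 6765 bases, and Rps21 had 1402 but 22.7 over 875 bases. The genes lie apart in the genome, and chromosome 7 holds 13 of them, more than any other chromosome. The paralogs that did not pass the filter were close to 0. Rpl10l, a testis paralog of Rpl10, had 0 to 15 counts and was seen in 9 libraries, Rpl39l had 0 to 11 counts and was seen in 5, and Rpl3l, a muscle paralog of Rpl3, had 0 to 4 counts and was seen in 4.

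Libraries held 57.4 to 87.1 M counts, of which 152510 to 652140 fell in the 76 genes, so counting error is small beside the spread between libraries (common biological coefficient of variation 31.0%). Within a group the ribosomal protein genes moved as a block in counts scaled between libraries with TMM factors. In each group 1 library was the highest of its 3 for 56 to 71 of the 73 tested genes. That library was the highest for 33.3% to 40.7% of all tested genes. In 8 of the 9 groups the same library also had the largest share of mitochondrial counts. This order depends on the scaling. CBLB502 replicate 3 (TMM factor 0.713) was the highest for 59 genes, but its share of counts in the 76 genes was the smallest of its group (0.217%). At 3 days after 15 Gy replicate 3 was the highest for 56 genes, while replicate 2 held the larger share (0.440% against 0.414%). Control replicate 3 was the highest control for 68 of the 73 genes and control replicate 2 the lowest for 64. The 6 libraries taken 24 h after 6 Gy, CBLB502-treated or not, stand apart: 28 markers of exocrine pancreas summed to 153 to 13829 per M counts with 6 Gy alone and 447 to 4868 with CBLB502, against 9.97 to 44.6 in the other 21 libraries.

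The 76 genes together took the largest share of counts 24 h after 6 Gy. In the controls they held 0.245%, 0.208% and 0.308% of all counts, a mean of 0.254% ± 0.0508 (SD, n = 3). The libraries taken 24 h after 6 Gy held 0.726%, 0.476% and 0.700%, a mean of 0.634% ± 0.138 (SD, n = 3) and 2.50 times the control mean. With CBLB502 given before 6 Gy they held 0.951%, 0.583% and 0.757%, a mean of 0.764% ± 0.184 (SD, n = 3) and 3.01 times the control mean. Every library of both groups lay above every library of the other 7 groups. As a share of coding counts without mitochondrial genes this did not hold, since replicate 1 of 6 Gy at 6 h had 0.638% and replicate 2 of 6 Gy at 24 h had 0.576%.

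After 15 Gy the share at 24 h was far nearer to the control. The libraries held 0.288%, 0.289% and 0.347%, 1.21 times the control mean, with overlap. With CBLB502 before 15 Gy they held 0.238%, 0.235% and 0.301%, and with CBLB502 alone 0.252%, 0.218% and 0.217%. Both groups overlapped the controls.

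At 6 h and at 3 days the shares lay below those at 24 h after 6 Gy. The libraries taken 6 h after 6 Gy held 0.384%, 0.329% and 0.324%, all above the controls. As a share of coding counts without mitochondrial genes these groups overlapped, with 0.410% in 6 Gy replicate 2 and 0.412% in control replicate 3. Those taken 6 h after 15 Gy held 0.392%, 0.309% and 0.237%, which overlapped the controls, with a mean 1.23 times theirs. At 3 days after 15 Gy they held 0.356%, 0.440% and 0.414%, all above the controls and 1.59 times their mean.

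**Figure D1:**
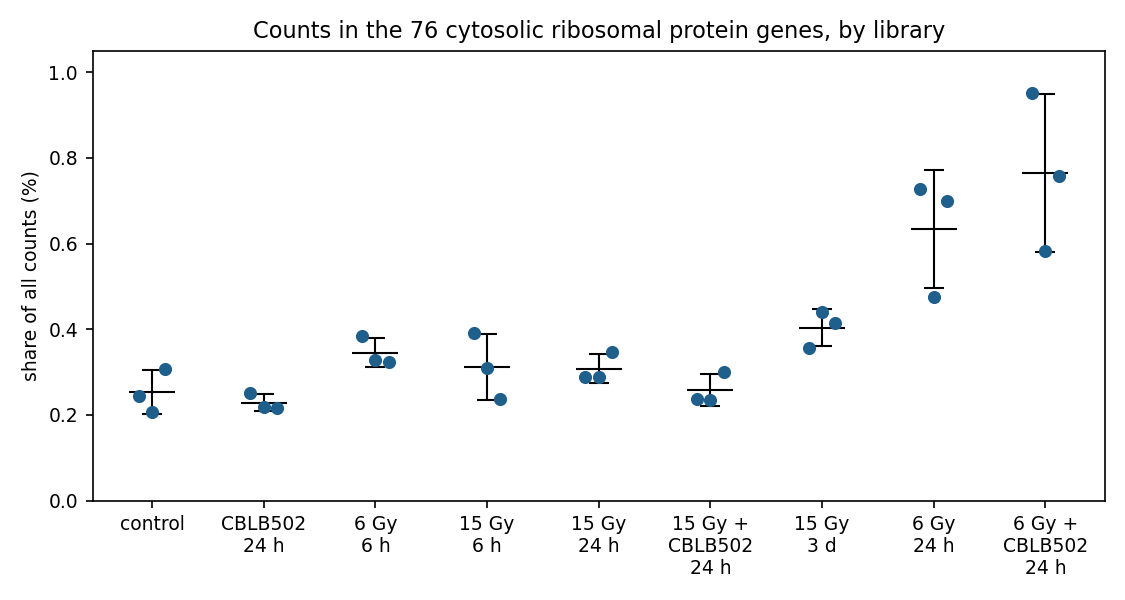
Share of all counts (%) in the 76 cytosolic ribosomal protein genes, with 1 point for each of the 27 libraries and a bar for the group mean ± SD (n = 3). The 6 libraries taken 24 h after 6 Gy lie between 0.476% and 0.951%, and the other 21 libraries between 0.208% and 0.440%.

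At 24 h after 6 Gy, 47 of the 73 tested genes rose against the controls and 0 fell (edgeR quasi-likelihood F test, Benjamini-Hochberg adjusted over all tested genes). Of all tested genes, 16.6% were called higher and 16.4% lower in this comparison, 33.0% in either direction. The median log2 fold change was 0.73 over the ribosomal protein genes and 0.07 over all tested genes, and 70 of the 73 values were above 0. Both subunits took part, with 21 of 30 small-subunit genes (median 0.82) and 26 of 43 large-subunit genes (median 0.67). For 43 genes the 3 irradiated libraries all lay above the 3 controls, as they did for 25.2% of all tested genes. The count was 28 without control replicate 2 and 27 without 6 Gy replicate 1.

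The largest rises were in Rps19 (chromosome 7, 24884371 to 24889806, plus strand), which is mutated in Diamond-Blackfan anaemia. Its levels, in counts per M of the tested genes' counts after TMM scaling (CPM), were 16.4, 11.02 and 28.9 in the controls, 78.5, 51.1 and 68.7 at 24 h after 6 Gy, and 95.2, 58.5 and 76.7 with CBLB502. The lowest irradiated library was well above the highest control. The log2 fold changes against control were 1.81 ± 0.41 (SE, adjusted p = 0.00236) and, with CBLB502, 2.03 ± 0.41 (adjusted p = 0.000881).

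Rps21, a small-subunit protein, had 8.00, 8.60 and 15.9 CPM in the controls and 43.7, 27.3 and 39.0 CPM at 24 h after 6 Gy. Rpl36, of the large subunit, had 12.2, 14.6 and 17.3 CPM in the controls and 48.8, 33.4 and 45.8 CPM after 6 Gy. Neither gene's groups overlapped. The log2 fold change of Rps21 was 1.76 ± 0.39 (adjusted p = 0.00193), and that of Rpl36 was 1.54 ± 0.28 (adjusted p = 0.000494). Rps27a, which is translated as a fusion with ubiquitin, had a like fold change of 1.78 (adjusted p = 0.00575), but its values of 65.8, 16.7 and 37.6 CPM overlapped the controls at 8.45, 6.80 and 19.6 CPM.

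Other genes of known role were as follows. Rpl3, at the peptidyl transferase centre, rose by 1.18 on the log2 scale (adjusted p = 0.0077), and Rpl39, in the peptide exit tunnel, rose by 1.20 (adjusted p = 0.00852). Rps3, near the mRNA entry channel, rose by 0.73 (adjusted p = 0.00557) and Rps6, the substrate of S6 kinase, by 0.81 (adjusted p = 0.0078). Rps4x, which is X-linked, rose by 1.04 (adjusted p = 0.00574), and Rpl22 by 0.73 (adjusted p = 0.0362) with groups that overlapped. Rpl26, which has been described as binding p53 mRNA, had a log2 fold change of 0.22 (adjusted p = 0.53).

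Both ribosomal proteins of the 5S particle that binds Mdm2 rose at 24 h after 6 Gy. Rpl5 (chromosome 5, 107900502 to 107909005, plus strand) had 43.8, 37.6 and 54.4 CPM in the controls, 104, 77.5 and 101 CPM after 6 Gy, and 135, 93.9 and 112 CPM with CBLB502. The irradiated libraries all lay above the controls. The log2 fold change of Rpl5 was 1.06 ± 0.24 (adjusted p = 0.00256), and that of Rpl11 was 0.85 ± 0.20 (adjusted p = 0.00321).

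**Figure D2:**
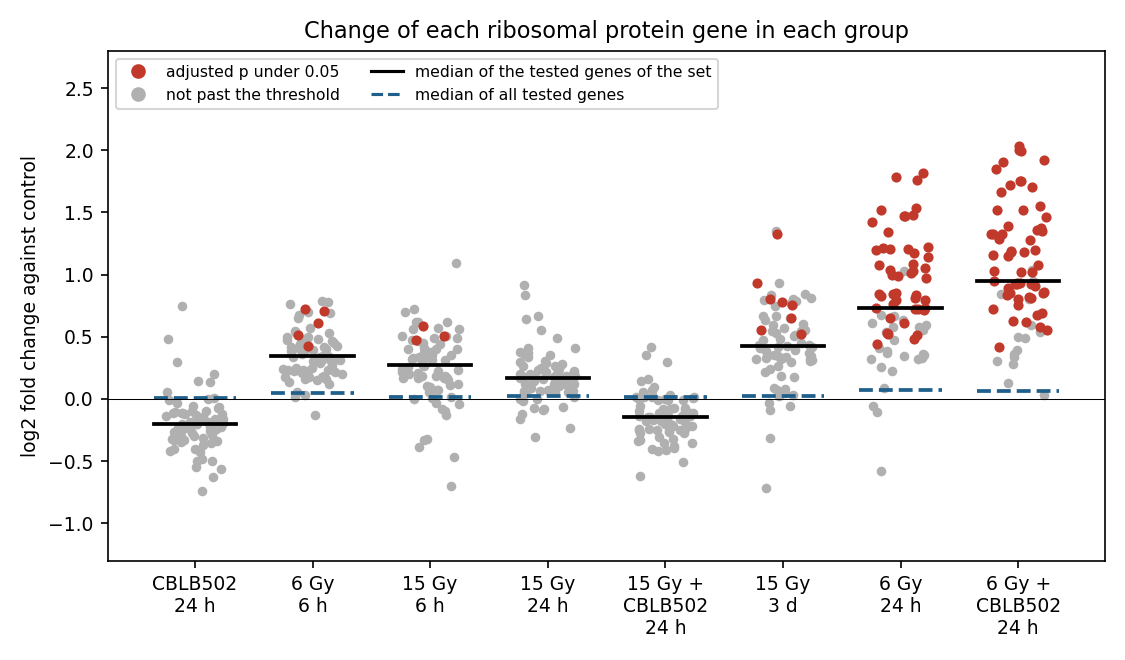
Log2 fold change against control for each of the 73 tested ribosomal protein genes (1 point per gene) in 8 groups, red where the adjusted p was under 0.05, with the median of the 73 genes as a solid line and the median of all tested genes as a dashed line. The points of 6 Gy at 24 h centre on 0.73 and those of 6 Gy + CBLB502 on 0.95, while in the CBLB502 group the median is -0.20 and no point is red.

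With CBLB502 before 6 Gy, 58 of the 73 genes rose against the controls and 0 fell, where 19.8% of all tested genes were called higher and 17.5% lower. The median log2 fold change was 0.95, with 26 of 30 small-subunit and 32 of 43 large-subunit genes called. For 61 genes the groups did not overlap, as for 28.3% of all tested genes. Both 6 Gy groups at 24 h are set against the same 3 controls. Set directly against 6 Gy alone, 0 of the 73 genes were called, the median difference was 0.25 (0.10 without 6 Gy replicate 2, 0.38 without 6 Gy + CBLB502 replicate 2), and 70 of the 73 values were above 0. In that direct comparison edgeR called 0 of all tested genes (0.0%), with 303 at an unadjusted p under 0.05, of which 0 were ribosomal protein genes. DESeq2 called 0.054% and limma 0.0809% of all genes, and neither called a ribosomal protein gene.

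In the 6 Gy libraries at 24 h other cell-type markers moved with the ribosomal protein genes. Of 25 tested markers of exocrine pancreas 23 were higher than in the controls, where 16.6% of all tested genes were called higher. In the 21 other libraries the pancreas sum was at most 44.6 per M. Markers may thus have passed the FPKM filter only through the 6 libraries of 6 Gy at 24 h, so their count is no separate support. All 6 lay above the other 21, so pancreas RNA and group cannot be told apart. With 6 Gy alone the library with the most pancreas RNA (replicate 2, 13829 per M) was the lowest of its group for 70 of the 73 genes. With CBLB502 the library with the least (replicate 2, 447 per M) was the lowest for 66. Fibroblast markers summed to 59.3 to 74.9 per M counts against 2.75 to 5.87 in the controls, and smooth muscle markers to 242 to 385 against 101 to 136. With CBLB502 before 6 Gy these sums were 56.3 to 68.0 for fibroblast and 207 to 267 for smooth muscle markers. Paneth cell markers summed to 251 to 1359 against 106 to 152, and crypt stem and cycling markers to 78.4 to 185 against 41.0 to 56.6. Enterocyte markers, the mark of the labelled tissue, were abundant in all groups, with 90385 to 101599 per M against 112047 to 136369, and 9 of 14 fell. Of all tested genes 16.4% were called lower. The part of these cell types in the rise was not tested.

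On the FPKM scale, limma on log2(FPKM + 1) called 72 of the 73 genes at 24 h after 6 Gy, where 56.2% of all genes were called. That scale moved the median of all tested genes to 0.45, and the ribosomal protein genes lay 0.82 above it, against 0.66 with the counts.

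The rises were unequal, and the order of the genes within the set changed. Relative to the median ribosomal protein gene of each library, 43 genes had an SD under 0.3 (log2) over the 27 libraries. Rps6 (0.117), Rps7 (0.119) and Rps3 (0.142) had the smallest SDs, at a steady distance from the median gene. Rps19 lay 0.98 below the median gene in the controls and 0.08 above it at 24 h after 6 Gy, and Rps21 moved from 1.74 below to 0.78 below. Rps27l moved from 0.83 above to 0.08 below and Rpl10 from 0.85 above to 0.10 below. Genes with a lower mean FPKM in the CBLB502 libraries, which are in neither group compared, changed more at 24 h after 6 Gy. The Pearson r was -0.46 and the Spearman rho -0.44 across 73 genes of the same libraries, which are not independent replicates. The 36 genes of lower FPKM had a median of 0.85 and the 37 of higher FPKM 0.61. FPKM also falls with gene model length. The 36 genes with longer models had a median of 0.80 and the 37 with shorter models 0.65, so level and length are not separated here.

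**Figure D3:**
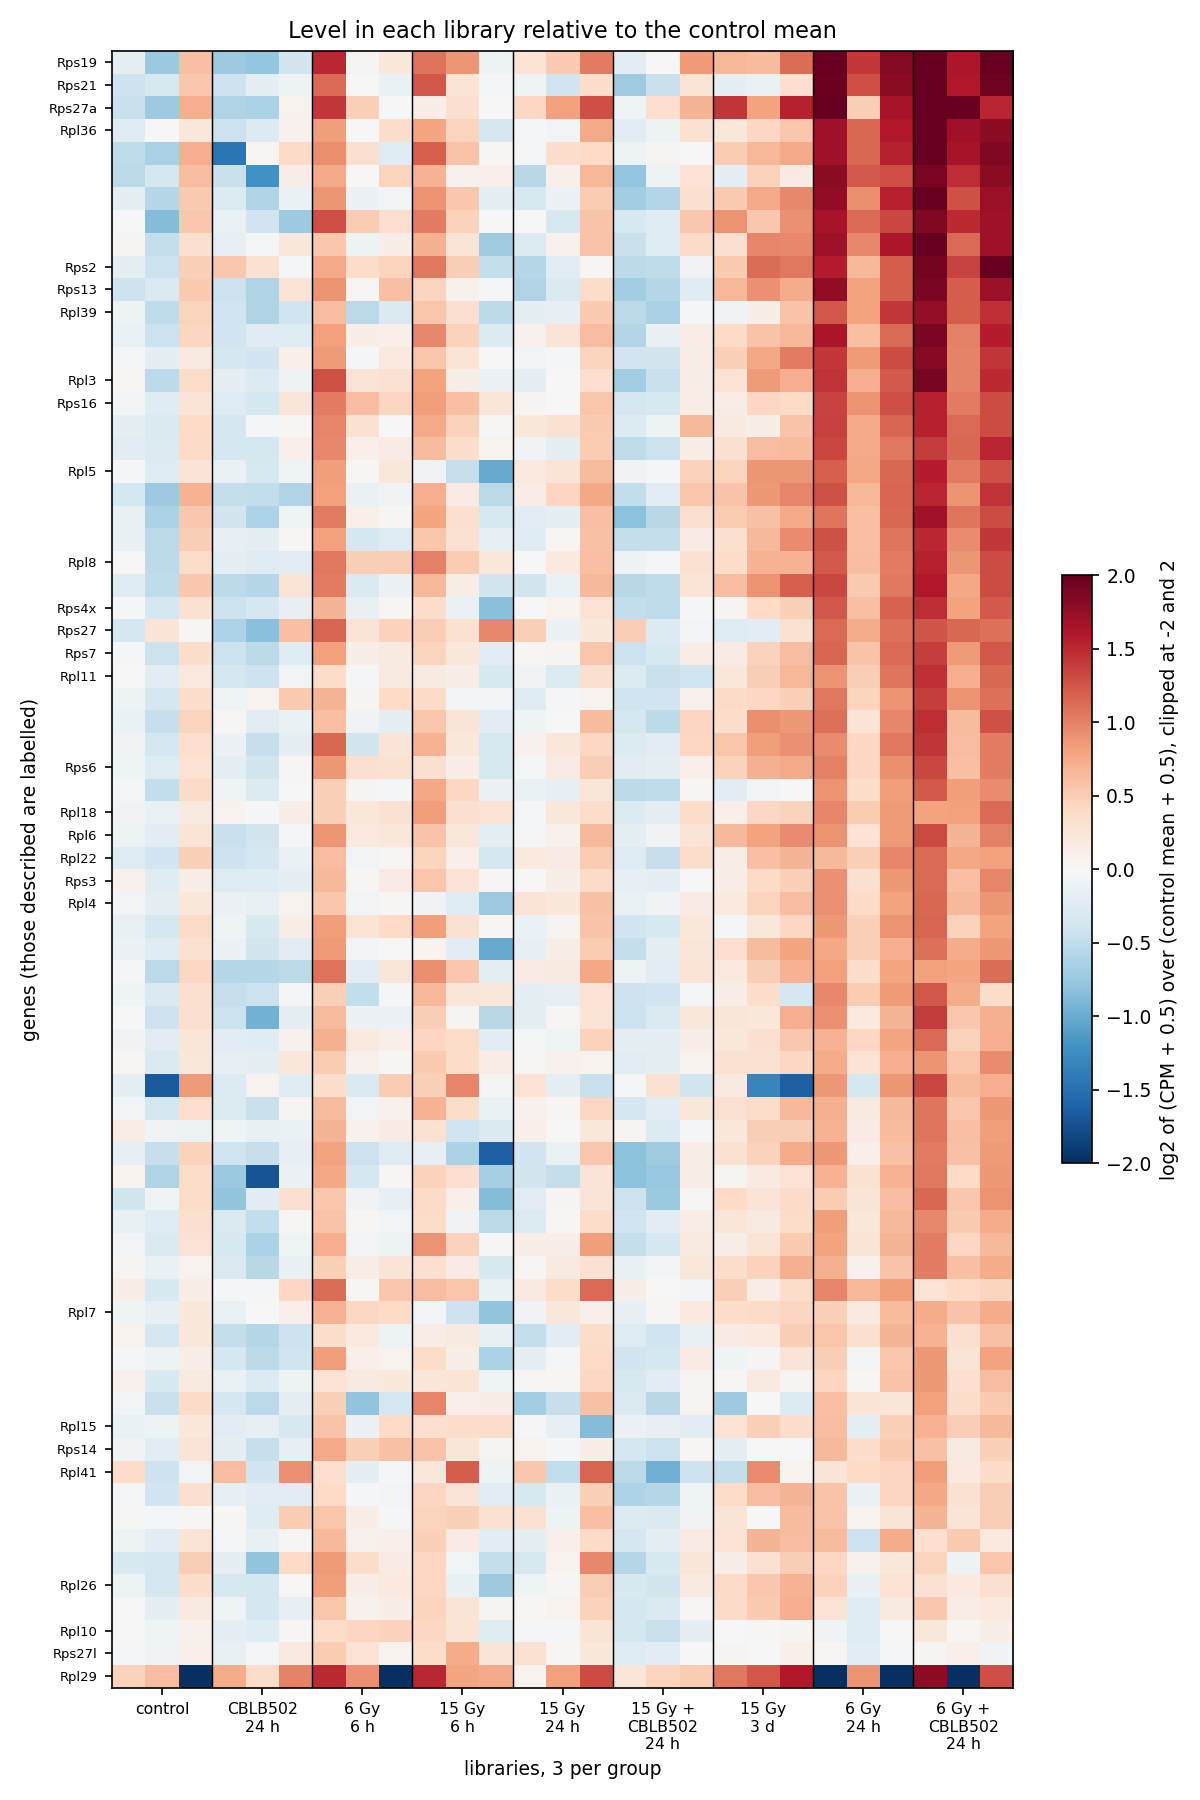
Levels of tested ribosomal protein genes (rows, ordered by change, with labels for those described) in each of the 27 libraries (columns, 3 per group), as log2 of (CPM + 0.5) over the (control mean + 0.5), clipped at -2 and 2. Most rows are red in the 6 libraries of 6 Gy at 24 h, while Rpl10 and Rps27l near the foot stay pale on this scale, and Rpl29 in the bottom row shows 5 very low libraries.

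Rps27 rose at 24 h after 6 Gy and Rps27l, whose protein is a near copy, was not called. The difference between their changes was not tested. Rps27 (chromosome 3, 90212522 to 90213648, minus strand) had 24.4, 37.9 and 31.9 CPM in the controls, 69.3, 53.02 and 67.6 CPM after 6 Gy, and 75.7, 70.1 and 67.7 CPM with CBLB502. Its irradiated libraries lay above the controls, with log2 fold changes of 1.01 ± 0.32 (adjusted p = 0.0195) and 1.18 (adjusted p = 0.00721). The first call was lost without control replicate 1, without 6 Gy replicate 1 and without 6 Gy replicate 3.

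Rps27l (chromosome 9, 66946086 to 66949516, plus strand) had 59.6, 58.1 and 65.9 CPM in the controls, 63.0, 52.5 and 60.5 CPM at 24 h after 6 Gy, and 63.5, 66.0 and 58.1 CPM with CBLB502. These groups overlapped, with log2 fold changes of -0.06 (adjusted p = 0.756) and 0.03 (adjusted p = 0.871). On the FPKM scale the direction at 6 Gy turned and the call with it, with limma values of 0.50 (adjusted p = 0.00214) and 0.62 (adjusted p = 0.000303). That scale put the median of all tested genes at 0.45 and 0.47 in these comparisons. The ratio of Rps27l to Rps27 compares the pair within a library and per length. It was 3.13, 1.96 and 2.65 in the controls, 1.16, 1.27 and 1.14 after 6 Gy, and 1.07, 1.20 and 1.10 with CBLB502. The 6 libraries of 6 Gy at 24 h were the lowest of all 27, the other 21 lying between 1.48 and 4.39. How the authors' counting split reads between these similar genes and their pseudogene copies is not given in the sources used here.

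Rps27l also had high values at 6 h. It had 79.2, 102 and 73.0 CPM at 6 h after 15 Gy, all above the controls, and rose by 0.47 ± 0.13 (log2, adjusted p = 0.0108). The call was lost without 15 Gy replicate 2, and with these 6 libraries fitted alone (adjusted p = 0.11). At 6 h after 6 Gy it had 87.4, 74.9 and 64.3 CPM, which overlapped the controls, and a log2 fold change of 0.30 (adjusted p = 0.0919). It was called there with limma on the FPKM scale (0.40, adjusted p = 0.0236) and without 6 Gy replicate 3 (0.41, adjusted p = 0.0415). Between the doses at 6 h it differed by 0.17 (adjusted p = 0.332). Of 14 tested p53 targets, 9 to 11 rose in each of the 7 irradiated groups and 0 with CBLB502 alone, where 2.63% to 19.8% of all tested genes were called higher in the irradiated groups and 2.48% with CBLB502.

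**Figure D4:**
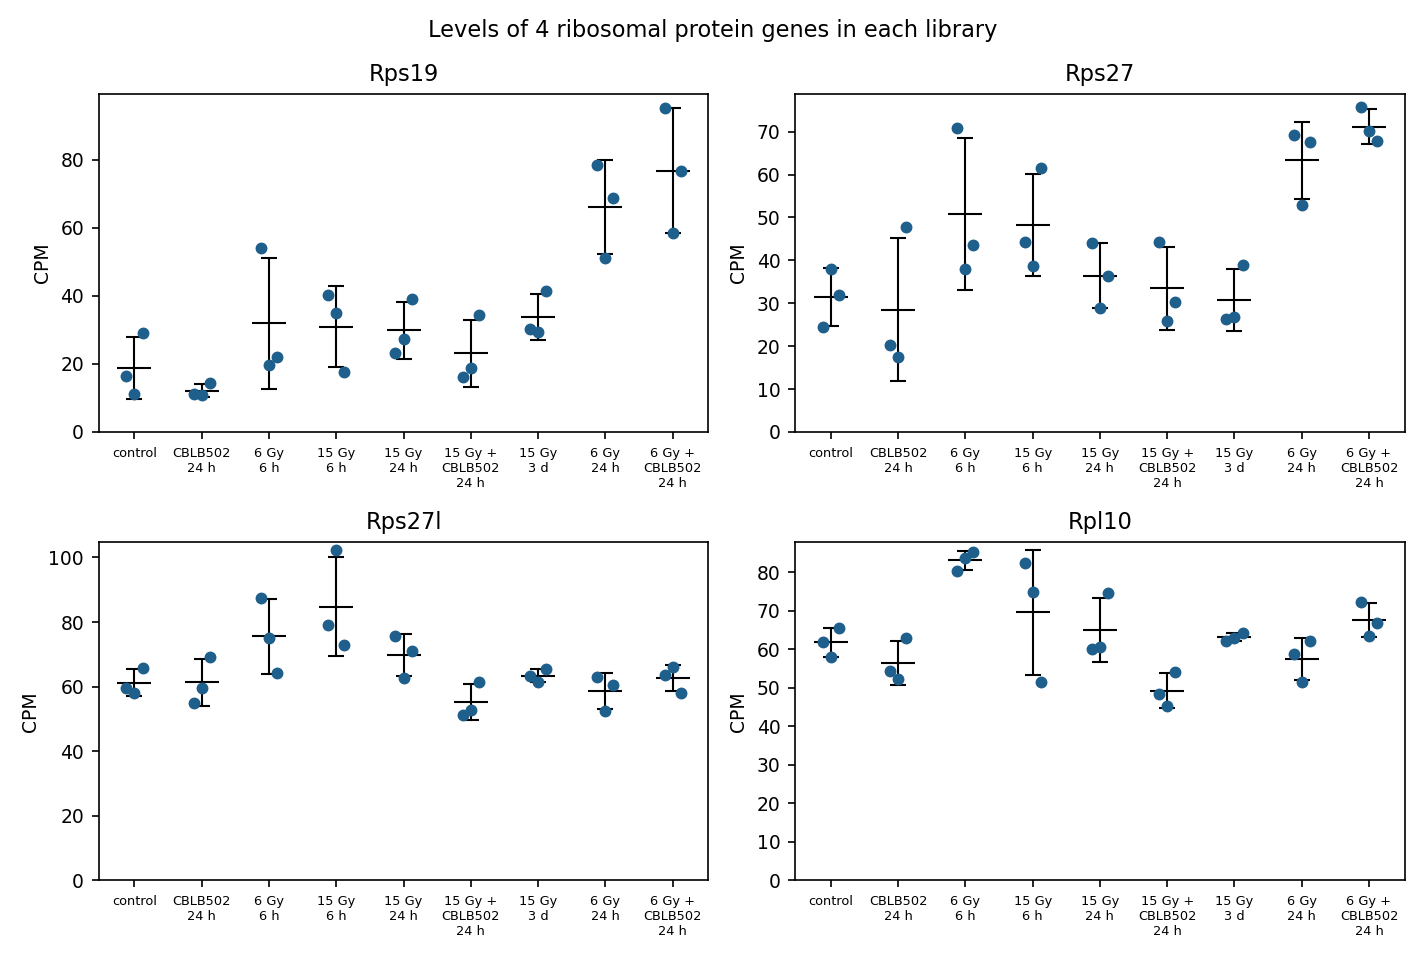
Levels of Rps19, Rps27, Rps27l and Rpl10 in counts per M (CPM) for each of the 27 libraries, with the group mean ± SD (n = 3). Rps19 and Rps27 have their highest group means in the 2 groups of 6 Gy at 24 h, though single libraries at 6 h reach that range. Rps27l (52.5 to 66.0 CPM in those 2 groups) overlaps the controls on this scale and is higher than they are on the FPKM scale.

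Against the controls, 0 of the 73 genes were called in either direction 24 h after 15 Gy, where 2.63% of all tested genes were called higher and 2.31% lower, 4.94% together. The median log2 fold change was 0.17, but -0.03 without 15 Gy replicate 3 and 0.36 without control replicate 3, and 1 gene had an unadjusted p under 0.05. DESeq2 and limma also called 0. The direct comparison of the doses at 24 h called 25 of the 73 genes lower at 15 Gy than at 6 Gy and 0 higher, where 7.02% of all tested genes were lower and 8.59% higher. The median was -0.60 and 13 small-subunit and 12 large-subunit genes were among the 25. For 31 genes the groups did not overlap, as for 17.6% of all tested genes. The count was 8 without 15 Gy replicate 1, 13 without replicate 2, 7 without 6 Gy replicate 1, 11 without 6 Gy replicate 3, and 3 when these 6 libraries were fitted alone.

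The largest falls with non-overlapping libraries between these doses were in Rps21 (log2 -1.78, adjusted p = 0.00571), Rps13 (-1.47, adjusted p = 0.00603) and Rps2 (-1.44, adjusted p = 0.00699). Rps13 lies at a bridge between the subunits and Rps2 near the mRNA entry channel. Rps2 had 21.9, 28.2 and 33.4 CPM at 15 Gy and 98.4, 51.8 and 76.5 CPM at 6 Gy. The 3 libraries at 15 Gy were all lower than those at 6 Gy. Rpl11 was also lower at 15 Gy (-0.83, adjusted p = 0.00937), while Rpl5 had a difference of -0.68 (adjusted p = 0.0589).

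CBLB502 before 15 Gy changed no ribosomal protein gene past the threshold. Against 15 Gy alone 0 of the 73 genes were called, the median was -0.32 (-0.13 without 15 Gy replicate 3, -0.51 without replicate 3 of the combined group), 71 values were below 0, and 7 genes had an unadjusted p under 0.05. For 9 genes the groups did not overlap, all lower with CBLB502, as for 5.76% of all tested genes. edgeR called 0 of all tested genes here (0.0%), with 867 at an unadjusted p under 0.05, while DESeq2 called 0.551% of them and 0 ribosomal protein genes. Against the controls the combined group had 0 calls, where 8.65% of all tested genes were called higher and 8.2% lower, and a median of -0.15. That median was 0.04 on the FPKM scale and 0.04 without control replicate 3, and -0.34 without replicate 3 of the combined group. DESeq2 called 1 gene lower, Rpl10.

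CBLB502 alone likewise gave 0 calls of 73 against the controls, where 2.48% of all tested genes were higher and 3.26% lower, 5.74% together. The median log2 fold change was -0.20, and 9 values were above 0. Leaving out single libraries moved the median from -0.35 (without control replicate 2) to 0.005 (without control replicate 3). By unadjusted p under 0.05 there was 1 gene, and DESeq2 and limma called 0.

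At 3 days after 15 Gy, 8 of the 73 genes rose against the controls and 0 fell, where 13.9% of all tested genes were called higher and 15.6% lower. The share called is under that of all genes, although the median was 0.43 against 0.02 over all tested genes. For 26 genes the groups did not overlap, as for 20.8% of all tested genes. The 8 are Rpl5, Rpl6, Rpl19, Rpl32, Rpl37, Rps2, Rps6 and Rps27a. The count rests on single libraries: it was 1 without control replicate 1, 0 without control replicate 2, 23 without control replicate 3, 3 without 15 Gy replicate 2 and 0 without 15 Gy replicate 3. On the FPKM scale limma called 47 genes, where 28.4% of all tested genes were called and their median was 0.18.

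Rpl5 had 61.8, 83.6 and 84.1 CPM at 3 days, all above the controls, and a log2 fold change of 0.76 ± 0.24 (adjusted p = 0.0213). Rps6 had 86.8, 103 and 107 CPM against 59.5, 52.5 and 76.7 CPM in the controls, and rose by 0.65 (adjusted p = 0.0288) without overlap. Rps27a rose by 1.33 (adjusted p = 0.0312), Rps2 by 0.93 (adjusted p = 0.0344) and Rpl6 by 0.81 (adjusted p = 0.0162). Against 24 h after the same dose, 3 genes rose, where 11.2% of all tested genes were called higher. These are Rps2 (1.16), Rps13 (0.92) and Rpl15 (0.69). Their count was 1 without the 24 h replicate 1 and 7 without the 24 h replicate 3. At 3 days Paneth cell markers summed to 604 to 1184 per M counts, 6 of 8 T cell markers fell, and 0 of 25 pancreas markers were called. Their part in the result was not tested.

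At 6 h after 6 Gy, 5 of the 73 genes rose and 0 fell, where 13.1% of all tested genes were called higher and 15.3% lower. The genes are Rpl7, Rpl8, Rpl10, Rps14 and Rps16. The median was 0.34 (0.11 without 6 Gy replicate 1, 0.51 without control replicate 3), with 72 values above 0, and the groups did not overlap for 9 genes, all higher, where 20.3% of all tested genes lay wholly higher and 19.5% wholly lower. The count was 3 without control replicate 1, 1 without control replicate 2, 12 without control replicate 3 and 2 without 6 Gy replicate 1. Rpl10 (chromosome X, 74270812 to 74273135, plus strand), a protein that joins the large subunit late, had 62.0, 58.1 and 65.4 CPM in the controls and 80.3, 83.8 and 85.2 CPM here, with no overlap. It rose by 0.43 ± 0.14 (adjusted p = 0.0216). Rps16 rose by 0.72 (adjusted p = 0.0159), Rpl8, at the peptidyl transferase centre, by 0.71 (adjusted p = 0.0333), and Rps14, the gene of the 5q- syndrome, by 0.61 (adjusted p = 0.00556).

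Rpl10 was back among the controls 24 h after 6 Gy, with 58.8, 51.6 and 62.3 CPM, overlap, and a log2 fold change of -0.10 (adjusted p = 0.584). On the FPKM scale that direction turned, with a limma value of 0.45 (adjusted p = 0.0165). The median of all tested genes was also 0.45 on that scale.

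At 6 h after 15 Gy, 3 of the 73 genes rose and 0 fell, where 12.2% of all tested genes were called higher and 16.8% lower. These are Rps27l, Rpl18 (0.50, adjusted p = 0.0389) and Rps16, whose groups overlapped. The median was 0.27. The count was 1 without control replicate 1, 1 without control replicate 2, 6 without control replicate 3, 1 without 15 Gy replicate 2 and 5 without 15 Gy replicate 3. Without 15 Gy replicate 1 the calls were 1 higher and 2 lower, and the median was 0.11.

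Between the doses at 6 h, 4 genes were lower at 15 Gy and 0 higher, where 23.0% of all tested genes were lower and 20.2% higher. All 4 are of the large subunit: Rpl4, Rpl5, Rpl7 and Rpl23, of which Rpl23 had overlapping groups. Without 6 Gy replicate 1 the calls were 1 lower and 1 higher. The count, all lower, was 9 without 15 Gy replicate 1 and 2 without 15 Gy replicate 3. Rpl7 had 121, 99.9 and 98.6 CPM at 6 Gy and 72.1, 56.1 and 42.8 CPM at 15 Gy. The groups were well apart, with a log2 difference of -0.90 ± 0.16 (adjusted p = 9.97e-05), and the call was kept in every setting run.

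Rpl5 had 81.5, 45.9 and 53.1 CPM at 6 h after 6 Gy and 43.3, 32.8 and 22.3 CPM after 15 Gy, a difference of -0.88 ± 0.24 (adjusted p = 0.00548). That call was lost with these 6 libraries fitted alone (adjusted p = 0.0619) and without 6 Gy replicate 1 (adjusted p = 0.0537). By 24 h after 15 Gy Rpl5 had 51.7, 54.6 and 70.4 CPM, all above those at 6 h after that dose. From 6 h to 24 h after 15 Gy, Rpl5 (0.85, adjusted p = 0.00992), Rpl4 and Rpl7 rose and Rpl15 fell, 3 and 1 of 73 genes where 18.7% of all tested genes were called higher and 13.5% lower. Without the 6 h replicate 3 the calls were 0 higher and 2 lower, and without the 24 h replicate 3 they were 1 higher and 1 lower. The call of Rpl5 was lost in both (adjusted p = 0.0697 and 0.0521), and with the compared libraries fitted alone (adjusted p = 0.0605).

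Ribosomal protein genes outside the name rule were measured too. At 24 h after 6 Gy, 4 of 7 large-subunit and 3 of 5 small-subunit genes rose and 0 fell. Of all tested genes 16.6% rose and 16.4% fell there. The stalk proteins Rplp0 (log2 1.04, adjusted p = 0.00429), Rplp1 (1.46, adjusted p = 0.00113) and Rplp2 (1.28, adjusted p = 0.00663) all rose. Rpsa (1.02, adjusted p = 0.00828), Rack1, a signalling scaffold on the small subunit (1.09, adjusted p = 0.00257), and Rpl22l1, the paralog of Rpl22 (1.09, adjusted p = 0.00725), rose as well. Fau, whose protein is made as a fusion with a ubiquitin-like domain, was not called at 24 h after 6 Gy (-0.09, adjusted p = 0.651). It fell at 3 days after 15 Gy (-0.64, adjusted p = 0.00241). Of 319 pseudogene entries, 107 were tested, and 34 rose and 2 fell at 24 h after 6 Gy, beside those 16.6% and 16.4% of all tested genes.

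Genes of ribosome assembly were measured beside them, where 16.6% of all tested genes rose and 16.4% fell at 24 h after 6 Gy, and 13.9% and 15.6% at 3 days after 15 Gy. Of 42 tested assembly factors, 22 rose and 2 fell at 24 h after 6 Gy (median 0.88), and 31 rose and 0 fell at 3 days after 15 Gy (median 1.31). Ddx21, a nucleolar RNA helicase, rose by 1.41 (adjusted p = 0.000102) and by 2.02 ± 0.21 (adjusted p = 6.66e-07) in these groups. Of the assembly factors 2 rose and 10 fell 6 h after 15 Gy, where 12.2% of all tested genes rose and 16.8% fell. Of 13 tested RNA polymerase I genes, 4 rose after 6 Gy at 24 h and 3 at 3 days. Of 23 tested elongation factors and other TOP mRNAs, 15 rose and 0 fell at 24 h after 6 Gy, and 8 rose and 1 fell at 3 days after 15 Gy.

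Of 78 tested mitochondrial ribosomal protein genes, 31 rose and 1 fell at 24 h after 6 Gy (median 0.38), and 13 rose and 9 fell at 3 days after 15 Gy. Of all tested genes 16.6% rose and 16.4% fell in the first of these comparisons, and 13.9% and 15.6% in the second. Of 73 tested nuclear-encoded subunits of the respiratory chain, 5 rose and 23 fell at 24 h after 6 Gy (median -0.21), and 0 rose and 66 fell at 3 days after 15 Gy (median -0.65). Among them 41 rose and 1 fell 6 h after 15 Gy. At that time 12.2% of all tested genes rose and 16.8% fell. These lists share the controls of the ribosomal protein genes, and their differences from them were not tested.

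**Figure D5:**
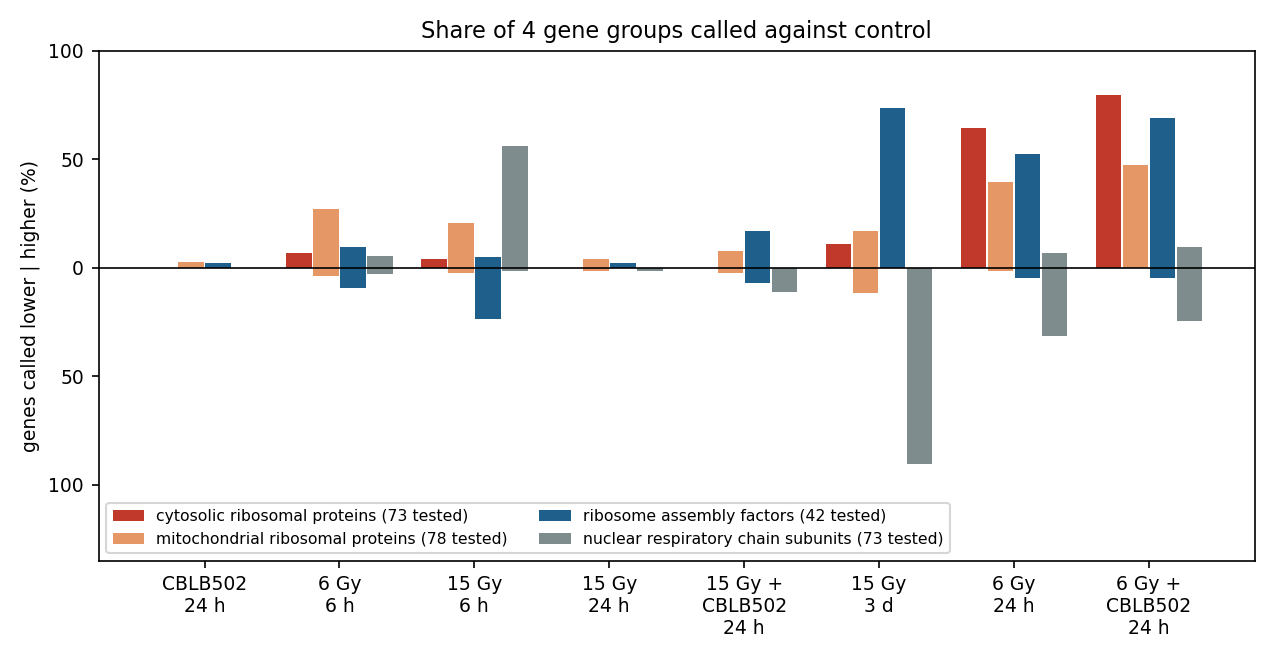
Share of the tested genes of 4 lists (%) called higher (upward bars) or lower (downward bars) than control at an adjusted p under 0.05 in 8 groups. At 3 days after 15 Gy the assembly factors reach 73.8% higher and the respiratory chain subunits 90.4% lower, while 8 of the 73 cytosolic ribosomal protein genes are higher.

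The 54 tested genes with a RefSeq window were split by the words shown above. At 24 h after 6 Gy, 12 of the 16 genes with CTTTCC or CTCTTT from 30 bases before to 20 after the start were called higher (median 0.80), and 23 of the 38 with neither (median 0.69), where 16.6% of all tested genes were called higher. With CBLB502 these were 13 of 16 (median 0.98) and 29 of 38 (median 0.93), where the share of all tested genes was 19.8%. At 3 days after 15 Gy they were 2 of 16 (median 0.41) and 4 of 38 (median 0.49), against 13.9% of all tested genes, so the order of the medians was the other way. Rps27 and Rps6 are among the 16, and Rps19, with the largest rise, is among the 38 with Rps27l and Rpl10. The difference between the 2 sets was not tested.

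Rpl29 (chromosome 9, 106429454 to 106431568, plus strand) departed most from the set, with an SD of 2.35 (log2) relative to the median gene. It had 52 counts in control replicate 3, 10 in replicate 3 of 6 Gy at 6 h, 62 and 56 in replicates 1 and 3 of 6 Gy at 24 h, and 120 in replicate 2 of 6 Gy + CBLB502, against 1067 to 4546 counts in the other 22 libraries. The low libraries lie in 4 groups, and its neighbour Acy1 shows no such split, with 4927 to 13066 counts in those 5 libraries and 2035 to 14333 in the other 22. Rpl29 was called in none of the comparisons with control, and its fold changes rest on which libraries are low.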

How the data were processed

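Intestinal RNA of 27 libraries was analysed from 1 table in which the authors deposited whole read counts and FPKM per gene, with 0.0001 for an FPKM of 0. The submitters' processing notes name Bowtie 0.12.2, HISAT2 2.0, StringTie 1.3.0 and mm8, without roles. The coordinates of 94.2% of the 55141 gene IDs found in GENCODE vM21 (GRCm38) were the same, so positions are given as GRCm38. The control is labelled untreated, while the design text speaks of PBS and 7 groups.

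Genes that reached an FPKM of 1 in 3 or more libraries entered edgeR 4.0.16 (R 4.3.3, TMM, quasi-likelihood F test), all 27 libraries in 1 fit, Benjamini-Hochberg adjusted over 11118 genes, threshold 0.05. Marker sums are per M of all counts. The alternatives were median-ratio scaling, no filter, DESeq2 1.42.0, limma 3.58.1 on log2(FPKM + 1), a replicate block, the compared libraries alone, leaving out the 6 libraries of 6 Gy at 24 h, and leaving out each library. In simulated data of the 6 Gy 24 h comparison, 67, 67 and 66 of 11118 genes were changed 1.5-, 2- and 4-fold. edgeR recovered 16.4%, 43.3% and 81.8% of them. The real comparison called 33.0% of tested genes, so these shares describe a setting with far fewer changes.

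Named were, per comparison, up to 3 largest rises and falls among called genes with non-overlapping libraries, plus fixed genes of known role and up to 3 per other list. The genes, lists and rule were chosen with earlier results of these data known. Other genes named, such as Rpl29, Rps7 and those in counts of 8 or fewer, were chosen after their values were seen. Start-site windows are from RefSeq. Values of some single genes in the lists are not reported here, and the counts include those genes.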

Additional observations from a re-analysis of the deposited data

Results flagged for a closer look

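The difference that CBLB502 made in Rpl10 at 24 h had opposite directions at the 2 doses. In CPM the 3 libraries with CBLB502 did not overlap the 3 without it at either dose. Of all tested genes, 5.92% lay wholly higher with CBLB502 at 6 Gy and 5.76% wholly lower at 15 Gy. In FPKM the Rpl10 groups overlapped at 6 Gy, with 34.9 to 45.4 with CBLB502 and 28.3 to 37.6 without. On the log2 scale the difference was 0.23 at 6 Gy and -0.40 at 15 Gy. These directions are not particular to Rpl10. Of the 73 tested ribosomal protein genes, 70 had values above 0 at 6 Gy (median 0.25) and 71 below 0 at 15 Gy (median -0.32). Neither Rpl10 difference passed the threshold, and the difference between the doses was not tested.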

How the results depend on the processing

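The numbers of ribosomal protein genes called depended on the processing. Without the filter on low values the count was 2 in place of 5 at 6 h after 6 Gy, 5 in place of 8 at 3 days after 15 Gy, 2 in place of 4 between the doses at 6 h and 15 in place of 25 between the doses at 24 h. In that order 8.4%, 9.32%, 15.9% and 3.62% of all genes in that fit were called. With limma on log2(FPKM + 1) it was 10 at 6 h after 6 Gy, 72 in place of 47 at 24 h after 6 Gy, 47 at 3 days, 65 between the doses at 24 h and 10 in place of 3 from 24 h to 3 days, and the medians were 1.27 at 24 h after 6 Gy, 1.48 with CBLB502 and -0.99 between the doses at 24 h. That scale puts the median of all tested genes at 0.45, 0.47 and -0.35 in these 3 comparisons. Of all tested genes limma called 22.8% at 6 h after 6 Gy, 56.2% at 24 h after 6 Gy and 28.4% at 3 days. It called 40.1% between the doses at 24 h and 21.3% from 24 h to 3 days. With the compared libraries alone the count was 1 at 6 h after 6 Gy, 0 at 6 h after 15 Gy, 1 between the doses at 6 h, 3 between the doses at 24 h and 0 from 6 h to 24 h after 15 Gy. In that order 19.4%, 13.8%, 34.1%, 2.76% and 18.2% of all tested genes were called. DESeq2 called 1 gene for 15 Gy + CBLB502 against control, where it called 21.8% of all genes. The TMM factors, which scale the counts but not the FPKM, were 0.86 in each control. They were 1.23 to 1.36 at 24 h after 6 Gy and 1.24 to 1.425 with CBLB502. The cause of the shifts with processing was not tested.

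Leaving out 1 library at a time, the count ran from 1 to 12 at 6 h after 6 Gy, 1 to 6 at 6 h after 15 Gy, 27 to 54 at 24 h after 6 Gy, 0 to 23 at 3 days, 40 to 61 for 6 Gy + CBLB502, 2 to 9 and 7 to 32 between the doses at 6 h and 24 h, 2 to 5 from 6 h to 24 h and 1 to 7 from 24 h to 3 days. The median between the doses at 6 h ran from -0.33 to 0.17, and it turned without 6 Gy replicate 1. The medians of the 15 Gy, CBLB502 and 15 Gy + CBLB502 groups at 24 h also turned without 1 library. The share of counts 6 h after 6 Gy was 1.54 times control over coding counts without mitochondrial genes and 1.20 times over summed FPKM.

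Replicate numbers did not pair the samples (correlations from -0.262 to 0.248 over the comparisons). With a replicate block the count was 16 at 3 days and 5 from 24 h to 3 days, where 28.9% and 24.8% of all tested genes were called. The other counts stayed within 1.5 times.

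Single genes turned direction in other settings where their log2 fold change against control was close to 0 in the edgeR fit of all 27 libraries. Rpl11 at 24 h after 15 Gy was -0.0087 with median-ratio scaling, -0.0088 with DESeq2 and from -0.17 to 0.137 with 1 library left out. Rpl11 at 6 h after 15 Gy was -0.0168 with the libraries alone and from -0.0934 to 0.151 with 1 left out. With 1 library left out, Rpl3 at 24 h after 15 Gy ran from -0.1429 to 0.28 and Rps6 at 6 h after 15 Gy from -0.0676 to 0.235. Rps27 at 3 days was 0.21 with limma and from -0.24 to 0.1275. Rps27l with 6 Gy + CBLB502 was -0.0127 with median-ratio scaling, -0.0337 without a filter, -0.0126 with DESeq2 and from -0.0082 to 0.103. Rps27l at 24 h after 6 Gy ran from -0.115 to 0.0135 with 1 library left out. With limma it was 0.50 and was called (adjusted p = 0.00214), so that value is not close to 0.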
